A study of Mus musculus with 8 samples.

Results

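The genes described here are 41 immediate early and heat shock genes of liver macrophages. They were chosen by symbol from a list, and the choice was made with earlier results of these data known. All 41 were among the 35906 genes with counts in the table, and all 41 were among the 15212 genes tested. The macrophages were sorted from livers of wild-type BALB/c mice by the leukocyte protein CD45 and the macrophage protein F4/80, and the series' design adds that CD31, an endothelial protein, was absent. There were 4 libraries of mice given vehicle and 4 of mice given carbon tetrachloride (CCl4), a liver toxin used to produce fibrosis. No transgene, deletion or second agent is named for either group, both groups went through the same stated warm collagenase digestion before sorting, and the sources used here do not give the dose and duration of CCl4 or the age of the mice. The labels do not tell whether 1 library stands for 1 mouse. The p-values therefore measure only the spread between these libraries, and that spread may be technical.

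Immediate early genes are transcribed within minutes of a signal from pre-existing factors, such as serum response factor at CArG boxes, CREB at cAMP response elements and NF-kB at kappa B sites. Many encode transcription factors (the FOS and JUN subunits of AP-1, the EGR and KLF zinc finger proteins) or feedback proteins that end the signal. Heat shock genes encode chaperones and their helpers, and heat shock factor HSF1 drives them from heat shock elements when proteins misfold. Both sets are known to respond to the handling and enzymatic dissociation of tissue.

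Relative to vehicle, 8 of the 41 genes fell in CCl4 and 4 rose, and 29 did not pass the test (edgeR's quasi-likelihood test, Benjamini-Hochberg adjusted p under 0.05 over all 15212 genes). The genes that fell were Jund, Egr1, Klf2, Ier2, Ier5, Btg2, Rhob and Dnajb1. Those that rose were Fosl2, Egr2, Csrnp1 and Zc3h12a. The share that fell was 19.5% of the 41, where 6.26% of all genes tested fell, and the share that rose was 9.76%, where 8.93% of all genes tested rose. Of the 41, 30 had a log2 fold change below 0, with a median of -0.40. Of all 15212 genes tested, 7931 were below 0, with a median of -0.03. In 9 of the 41 all CCl4 libraries lay below all vehicle libraries, which held for 9.49% of all genes tested, and in 5 all CCl4 libraries lay above, which held for 13% of them. At an unadjusted edgeR p under 0.05, 18 of the 41 were lower and 6 higher, against 12.9% and 15.4% of all genes tested. DESeq2 called 11 lower and 5 higher, against 8.09% and 11.7% of all genes. With library size as the sole scaling, 16 of the 41 were lower and 4 higher, against 9.41% and 7.11% of all genes. The median of all genes tested under that scaling was -0.16, below the -0.03 given above.

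**Figure D1:**
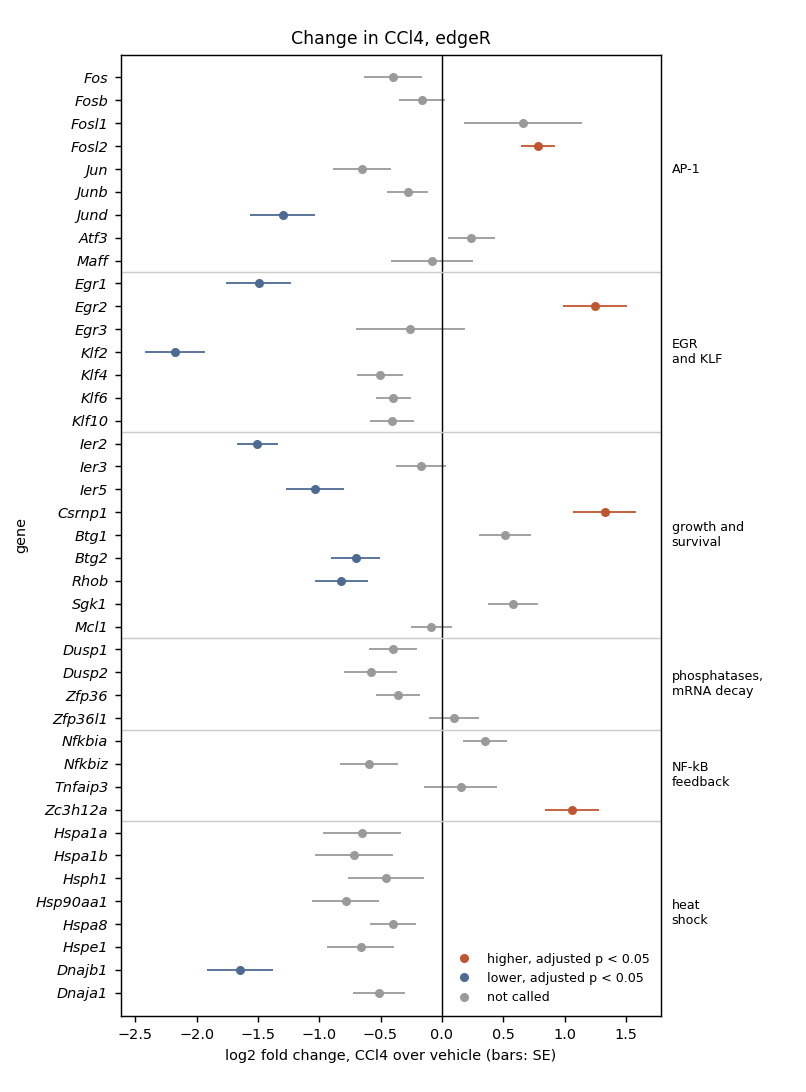
Log2 fold change of each of the 41 genes in CCl4 over vehicle (horizontal axis, points with SE bars from edgeR, 4 libraries per group), grouped by role. Klf2 lay lowest at -2.17 and Csrnp1 highest at 1.33, and all 8 heat shock genes lay below 0.

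Together the 41 genes made up 2.71% ± 0.393 (SD, n = 4) of the counts in vehicle and 1.979% ± 0.226 (SD, n = 4) in CCl4. The libraries ran from 1.691% to 2.242% in CCl4 and from 2.227% to 3.144% in vehicle. Thus CCl4 2, at the top of its group, and vehicle 2, at the bottom of its group, overlapped. These shares are without the main fit's TMM scaling. With it, the summed CPM of both CCl4 2 (22860) and CCl4 3 (23758) lay above that of vehicle 2 (20302). Library totals ran from 19489104 to 26196063 estimated counts. Single genes ran from 11 counts, for Egr3 in its lowest library, to 127971, for Dusp1 in its highest. By TPM, which is per transcript length, Hspa8, Dusp1, Nfkbia and Junb stood highest in vehicle, at 3491 ± 818, 3404 ± 682, 2229 ± 376 and 1593 ± 236 (SD, n = 4). Hspa8 and Dusp1 did not differ beyond their spread. Egr3, at 0.499 ± 0.0759 TPM, was lowest.

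The sorted cells also differed between groups in what they held besides these genes. F4/80's own gene, Adgre1, did not pass the test (1272 ± 210 CPM in vehicle, 1187 ± 165.7 in CCl4, SD, n = 4 each, CPM after TMM scaling). Summed levels of marker lists are in CPM of the library total, without TMM scaling. The summed level of 10 Kupffer cell markers (the resident liver macrophages) was 23915 to 32728 CPM in vehicle and 6624 to 11686 in CCl4, with 9 of the 10 lower. The summed level of 8 monocyte markers was 90.9 to 152 CPM in vehicle and 472 to 615 in CCl4, and that of 12 neutrophil markers 117 to 259 and 264 to 493 CPM. That of 16 liver endothelial markers was 728 to 1269 and 575 to 708 CPM, with 11 of the 16 lower and 1 higher. Mitochondrially encoded transcripts took 1.914% to 5.31% of counts in vehicle and 0.763% to 1.164% in CCl4. The summed level of 10 macrophage markers was 27791 to 33513 CPM in vehicle and 54063 to 64085 in CCl4, with 2 of the 10 higher and 1 lower, and that of 8 mesothelial and cholangiocyte markers 8.99 to 43.1 and 61.8 to 137 CPM. These 7 values and the summed T and NK cell markers did not overlap between groups before TMM scaling. For each of the 8 the 2-sided exact permutation p was 0.0286, the smallest this design allows. After Benjamini-Hochberg adjustment over 16 such values it was 0.0571. The TMM factor was 1.1 for vehicle 2 and 0.8463 for CCl4 3. Narrow gaps, as in the endothelial and the T and NK cell sums, therefore need not hold after TMM scaling. None of these lists had a marker at 0 in every library. The part of any of them in the results below was not tested, and in bulk samples fewer cells of a type and less RNA per cell cannot be told apart.

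Vehicle 2 and CCl4 4 held more olfactory and vomeronasal receptor counts than the rest. They had 3094 and 3034 CPM of the library total, against 607 to 1538 in the other 6 libraries. These 2 libraries also had the lowest totals, at 19686629 and 19489104 estimated counts. The most genes were detected in them, at 23025 and 23868, against 19265 to 21670 in the other 6. Whether this bears on the 41 genes was not tested. Among the vehicle libraries, vehicle 2 was the lowest for 22 of the 41 genes and vehicle 1 for 0. Among the CCl4 libraries, CCl4 4 was the lowest for 19 and CCl4 1 for 16. Without vehicle 2 and CCl4 4, 10 of the 41 genes were lower and 5 higher, and of the 14982 genes tested then 7.76% were lower and 11% higher.

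**Figure D2:**
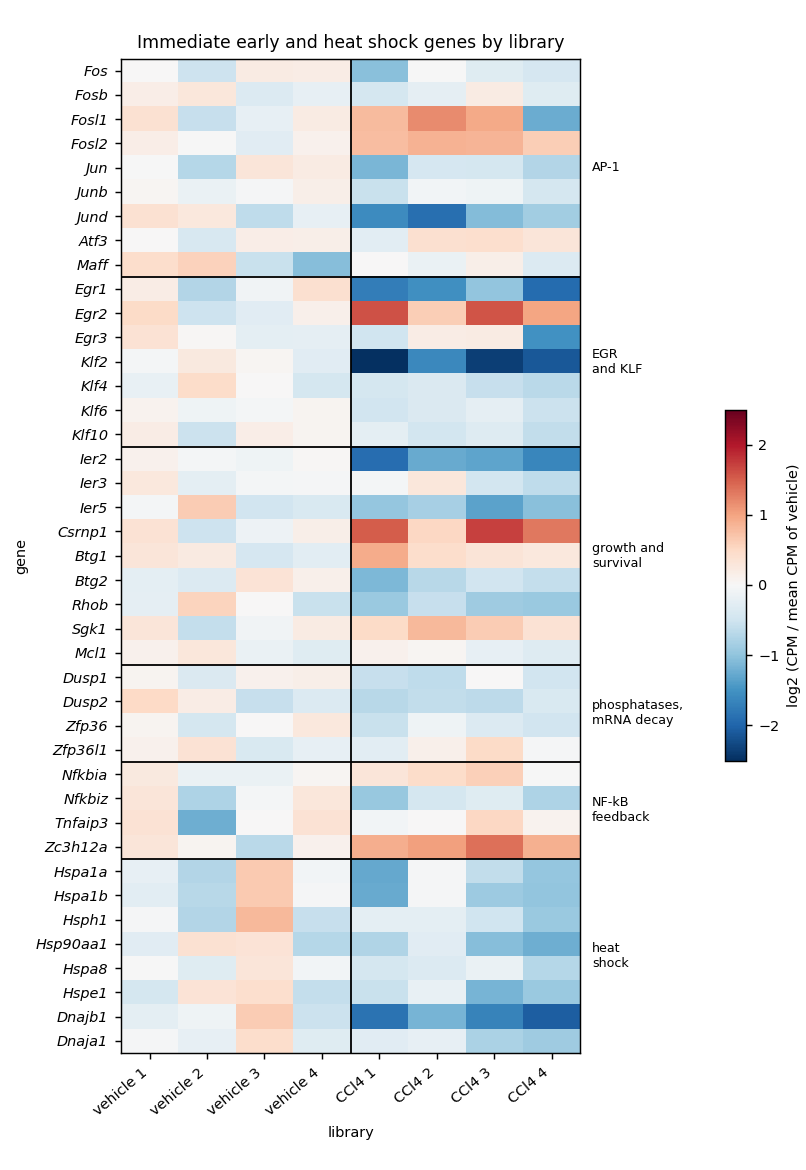
Level of each of the 41 genes (rows, grouped by role) in each of the 8 libraries (columns), as log2 of its CPM over the mean CPM of vehicle. Klf2, Egr1, Ier2 and Dnajb1 were low in all 4 CCl4 libraries, and vehicle 3 stood highest for 7 of the 8 heat shock genes.

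Among the 9 genes of AP-1 and its partners, Fosl2 rose and Jund fell, and 7 did not pass the test. Of all genes tested, 8.93% rose and 6.26% fell, shares that leave few called genes in a group this small. In this group 6 of the 9 were below 0, with a median of -0.17 (from -0.29 to -0.05 with 1 library left out). Fosl2 (chr5:32135801-32157842, GENCODE M21, mm10) encodes Fra-2, a FOS family subunit that pairs with JUN proteins. It was at 50.8, 45.0, 37.7 and 48.8 CPM in vehicle 1 to 4 and at 77.6, 83.7, 81.8 and 70.1 CPM in CCl4 1 to 4. All CCl4 libraries lay above all vehicle libraries, and the group means were 45.6 ± 5.80 and 78.3 ± 6.04 (SD, n = 4). The log2 fold change was 0.78 (SE 0.14, edgeR adjusted p 0.00283), or 1.72-fold. The change kept its direction in the deposited FPKM table but did not pass the test there, with adjusted p of 0.053 to 0.0788 by limma. The RefSeq promoter table (GRCm38.p6, mm10, 250 bases before to 50 after each transcript start) holds kappa B site letters in the Fosl2 window, and these are shown because Fosl2 was the AP-1 gene that rose. The stretch is chr5:32136281-32136309, plus strand, 5′ to 3′, and capitals mark 2 overlapping matches that start 182 and 181 bases before the RefSeq start. In GENCODE M21 it lies in the first exon of a Fosl2 transcript that starts farther upstream.
Fosl2: gatcggggaGGGAGTCCCCCagagctgcc

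Jund (chr8:70698949-70700616) encodes a JUN subunit that is more constitutive than its relatives. Its libraries were at 29.6, 27.3, 14.7 and 19.8 CPM in vehicle and 7.68, 6.23, 10.8 and 12.5 CPM in CCl4. The 4 CCl4 libraries lay below the 4 vehicle libraries, with CCl4 4 and vehicle 3 the nearest pair. The means were 22.9 ± 6.86 and 9.30 ± 2.85 (SD, n = 4), a 2.46-fold decrease at -1.30 on the log2 scale (SE 0.27, edgeR adjusted p 0.00656).

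Junb, the AP-1 gene with the highest TPM, was at 2082, 1785, 1969 and 2217 CPM in vehicle and 1376, 1916, 1865 and 1485 CPM in CCl4. The groups overlapped, and its log2 fold change was -0.28 (SE 0.17, edgeR adjusted p 0.312). Jun itself was at 592.1 to 1195 CPM in vehicle and 439.4 to 718.4 CPM in CCl4, overlapping through vehicle 2. Its log2 fold change was -0.65 (SE 0.24, edgeR adjusted p 0.0898), and without vehicle 2 it passed the test at -0.83 (adjusted p 0.0125). Jun also passed by DESeq2 (adjusted p 0.0339) and with library size as the sole scaling (edgeR adjusted p 0.0342). Fos, which pairs with JUN proteins, was at 854.1 to 1405 CPM in vehicle and 587.5 to 1211 CPM in CCl4 (log2 fold change -0.40, edgeR adjusted p 0.301). Atf3, a stress-induced partner that often represses, was at 360.2 to 532 and 393.5 to 634.2 CPM (0.24, edgeR adjusted p 0.474). Thus Junb, Jun, Fos and Atf3, the 4 AP-1 genes with the highest TPM, did not pass the test in the main edgeR fit.

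Maff, a small MAF protein without an activation domain, was at 3.52 to 11.0 CPM in vehicle and 5.80 to 8.15 CPM in CCl4, and the sign of its log2 fold change of -0.08 (edgeR adjusted p 0.908) turned without vehicle 1, vehicle 2 or CCl4 4. Fosl1, which encodes Fra-1, was at 0.975 to 1.88 CPM and 0.618 to 3.27 CPM, at 0.66 on the log2 scale (SE 0.48, edgeR adjusted p 0.418). Fosl1 overlaps Ccdc85b on the other strand, whose counts were 465% of its own, and the reads of such pairs cannot be told apart without strand. Scaled by transcript length, its log2 fold change turned to -1.09.

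Fosb, another FOS family gene, was at 64.4 to 100.4 CPM in vehicle and 60.7 to 94.9 CPM in CCl4 (log2 fold change -0.17, edgeR adjusted p 0.634). Its counts were split between the transcripts Fosb-201, which codes for 338 amino acids, and Fosb-207, which codes for 201. Fosb-201 took 42.1%, 25.4%, 43.7% and 55.2% of the gene's counts in vehicle and 58.7%, 51.7%, 59.3% and 65.2% in CCl4. The groups overlapped through vehicle 4 and CCl4 2. Fosb-207 took 56.0% ± 13.1 in vehicle and 37.3% ± 6.55 in CCl4 (SD, n = 4), as estimated by kallisto from shared reads; this split was not tested.

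Of the 7 EGR and KLF genes, Egr1 and Klf2 fell, Egr2 rose and 4 did not pass the test. Of all genes tested, 6.26% fell and 8.93% rose. In this group 6 of the 7 were below 0, with a median of -0.41. The group's only gene above 0 was Egr2. Klf2 (chr8:72319033-72321656), a zinc finger factor that restrains inflammatory activation of myeloid cells and is also strongly expressed by endothelial cells and resting lymphocytes, had the largest fold change of the 41 genes in the edgeR fit. It was at 61.3, 74.6, 65.2 and 52.3 CPM in vehicle and 8.46, 20.7, 12.4 and 14.5 CPM in CCl4. The highest CCl4 library was far below the lowest vehicle library. The means were 63.4 ± 9.24 and 14.0 ± 5.11 (SD, n = 4), 4.51-fold lower in CCl4, or -2.17 on the log2 scale (SE 0.24, edgeR adjusted p 0.000165). Beside it, the endothelial marker Pecam1, which encodes CD31, was at 73.8 ± 21.3 CPM in vehicle and 27.4 ± 2.86 in CCl4 (SD, n = 4), and 11 of the 16 endothelial markers were lower. The summed T and NK cell markers were at 74.1 to 88.7 and 46.7 to 68.8 CPM of the library total, without TMM scaling. But of the 8 tested 0 were called and 3 were below 0, with a median of 0.02. The summed B cell markers overlapped, at 134.8 to 431.4 and 252.0 to 578.5 CPM on the same scale. The part of these cells in the Klf2 value was not tested.

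Egr1 and Egr2 moved in opposite directions. Egr1, the serum-induced EGR factor, was at 469.1, 248.5, 387.5 and 547.2 CPM in vehicle and 125.4, 143.6, 208.6 and 108.4 CPM in CCl4. No CCl4 library reached vehicle 2, the lowest of the vehicle libraries. Its means were 413.1 ± 127.6 and 146.5 ± 43.9 (SD, n = 4), 2.82-fold lower in CCl4, or -1.50 on the log2 scale (SE 0.26, edgeR adjusted p 0.00272). Egr2 (chr10:67535475-67542188), a relative that is also known as a factor of alternatively activated macrophages, was at 66.2, 33.2, 39.2 and 52.2 CPM in vehicle and 144.8, 73.5, 141.0 and 94.3 CPM in CCl4. All 4 CCl4 libraries were above vehicle 1, the highest of vehicle. The means were 47.7 ± 14.7 and 113.4 ± 35.2 (SD, n = 4), a rise of 2.38-fold, or 1.25 on the log2 scale (SE 0.26, edgeR adjusted p 0.00741). CArG box letters are in 4 of its 5 promoter windows, but the windows that start at chr10:67537619, 67537620 and 67537680 overlap and can share a match. The window shown has the letters (capitals) 72 bases before the start, at chr10:67537464-67537533, plus strand. This stretch lies inside the Egr2 gene of GENCODE M21 but outside its exons. It is shown as a serum response element type motif next to the EGR gene that rose, and Egr1, which fell, has no window.
Egr2: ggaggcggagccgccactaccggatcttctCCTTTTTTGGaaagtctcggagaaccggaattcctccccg

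Klf6, a KLF factor induced by injury and the one with the highest TPM here, was at 1074, 934.9, 971.5 and 1056 CPM in vehicle and 721.4, 783.6, 863.6 and 696.1 CPM in CCl4. The groups did not overlap, yet the log2 fold change of -0.40 (SE 0.14) had an edgeR adjusted p of 0.0897. Klf6 passed by DESeq2 (adjusted p 0.012) and with library size as the sole scaling (edgeR adjusted p 0.00887). Klf4, known in monocyte differentiation and in endothelium, was at 34.0 to 63.8 and 29.0 to 36.0 CPM (-0.51, edgeR adjusted p 0.0952). Klf10, a TGF-beta-inducible factor, was at 97.7 to 160.6 and 92.5 to 119.7 CPM (-0.41, edgeR adjusted p 0.157), and passed the test without vehicle 2 (-0.55, adjusted p 0.0109). Klf10 also passed with library size as the sole scaling (edgeR adjusted p 0.033). Egr3 was at 1.27 to 1.92 and 0.523 to 1.72 CPM (-0.26, edgeR adjusted p 0.763). In 7 of the 8 libraries all of its counts fell, to within rounding, on Egr3-202, a transcript with a retained intron, and the deposited FPKM table lists Egr3 at 0 in all 8, so these counts are not a level of the coding transcript.

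Of the 9 immediate early regulators of growth and survival, Ier2, Ier5, Btg2 and Rhob fell, Csrnp1 rose and 4 did not pass the test. Of all genes tested, 6.26% fell and 8.93% rose. The median of the 9 was -0.17 (from -0.36 to -0.05 with 1 library left out). Ier2 (chr8:84661331-84662852) encodes a nuclear protein induced by growth factors. It was at 303.1, 273.7, 260.7 and 287.7 CPM in vehicle and 75.3, 117.4, 112.8 and 90.5 CPM in CCl4. Both groups were tight and far apart, with means of 281.3 ± 18.2 and 99.0 ± 19.7 (SD, n = 4). It fell by 1.51 on the log2 scale (SE 0.17, edgeR adjusted p 0.000158), or 2.84-fold. Ier5 (chr1:155096361-155099636), a relative that binds the phosphatase PP2A and can activate HSF1, was at 62.1, 99.8, 46.2 and 49.8 CPM in vehicle and 33.2, 36.1, 25.4 and 31.1 CPM in CCl4. Vehicle 2 was the highest, and every vehicle library was above every CCl4 library. The log2 fold change was -1.04 (SE 0.23, edgeR adjusted p 0.011), or 2.05-fold lower. Ier3, another gene named as immediate early, which protects from cell death, was at 81.9 to 117.4 and 62.8 to 118.2 CPM (-0.17, edgeR adjusted p 0.646).

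Btg2 (chr1:134075170-134079120), an antiproliferative gene and p53 target, was at 420.9, 391.6, 626.8 and 543.1 CPM in vehicle and 228.8, 304.6, 356.3 and 327.3 CPM in CCl4. The groups did not overlap, and it fell by 0.70 on the log2 scale (SE 0.20, edgeR adjusted p 0.0325), or 1.63-fold. The call was lost without vehicle 3, vehicle 4, CCl4 1 or CCl4 2, with adjusted p of 0.113, 0.0931, 0.102 and 0.0742. Its relative Btg1 was at 525.0, 495.8, 318.0 and 354.2 CPM in vehicle and 805.2, 576.9, 531.1 and 511.0 CPM in CCl4. Here the direction was upward, with vehicle 1 overlapping CCl4 4, and the log2 fold change of 0.52 (SE 0.21) had an edgeR adjusted p of 0.132. Rhob (chr12:8497661-8500009), an inducible small GTPase of endosomes that is also abundant in endothelium, was at 33.5, 57.4, 39.2 and 26.5 CPM in vehicle and 20.6, 26.3, 21.2 and 20.6 CPM in CCl4. Vehicle 4 and CCl4 2 nearly met. It fell by 0.82 (SE 0.22, edgeR adjusted p 0.0255), or 1.76-fold, and the call was lost without vehicle 3, CCl4 1, CCl4 3 or CCl4 4 (adjusted p of 0.0597, 0.0882, 0.079 and 0.0597). Without vehicle 2 and CCl4 4 together, its log2 fold change was -0.55 (edgeR adjusted p 0.053).

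Csrnp1 (chr9:119971163-119984658), an immediate early nuclear protein first described as induced by axin, was the member of the 41 that rose most. It was at 98.2, 53.4, 70.4 and 85.1 CPM in vehicle and 217.8, 109.7, 251.5 and 192.4 CPM in CCl4. CCl4 2 was the lowest of CCl4 and still above vehicle 1. The means were 76.8 ± 19.3 and 192.8 ± 60.5 (SD, n = 4), a rise of 2.51-fold, or 1.33 on the log2 scale (SE 0.26, edgeR adjusted p 0.00481). In the annotation the whole Csrnp1 gene, 13496 bases, overlaps Cx3cr1 on the same strand, and Cx3cr1, a chemokine receptor of monocyte-derived cells, also rose (122.5 and 254.3 CPM, log2 fold change 1.05, edgeR adjusted p 0.00803). How reads were shared between the pair was not tested. Windows of Csrnp1 and of Btg2 are printed because they held AP-1 site letters and cAMP response element letters. Of the other called genes of this group, Ier5 and Rhob held none of the motifs searched, and Ier2 had no window. The other Csrnp1 windows held no AP-1 site letters, and the stretch shown lies inside the Csrnp1 gene of GENCODE M21. In the Csrnp1 window, chr9:119983024-119983145, minus strand, capitals mark the AP-1 site letters 102 and 14 bases before the start, which read here as the other strand of TGACTCA. In the Btg2 window, chr1:134079284-134079351, minus strand, they mark TGACGTCA, 166 bases before the start.
Csrnp1: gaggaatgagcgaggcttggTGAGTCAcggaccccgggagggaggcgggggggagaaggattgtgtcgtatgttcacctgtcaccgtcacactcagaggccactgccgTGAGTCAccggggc
Btg2: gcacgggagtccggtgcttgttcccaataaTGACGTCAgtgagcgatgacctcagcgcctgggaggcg

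Sgk1, a serum- and glucocorticoid-induced kinase, was at 445.3, 239.2, 337.9 and 413.8 CPM in vehicle and 500.9, 632.1, 557.6 and 460.1 CPM in CCl4. The groups did not overlap, but its log2 fold change of 0.58 (SE 0.20) had an edgeR adjusted p of 0.0778, and it passed the test without vehicle 1 (adjusted p 0.0489). DESeq2 also called Sgk1 higher (adjusted p 0.0231). Mcl1, a short-lived BCL2 family survival protein, was at 153.5 to 230.8 and 150.9 to 202.3 CPM (-0.09, edgeR adjusted p 0.799).

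**Figure D3:**
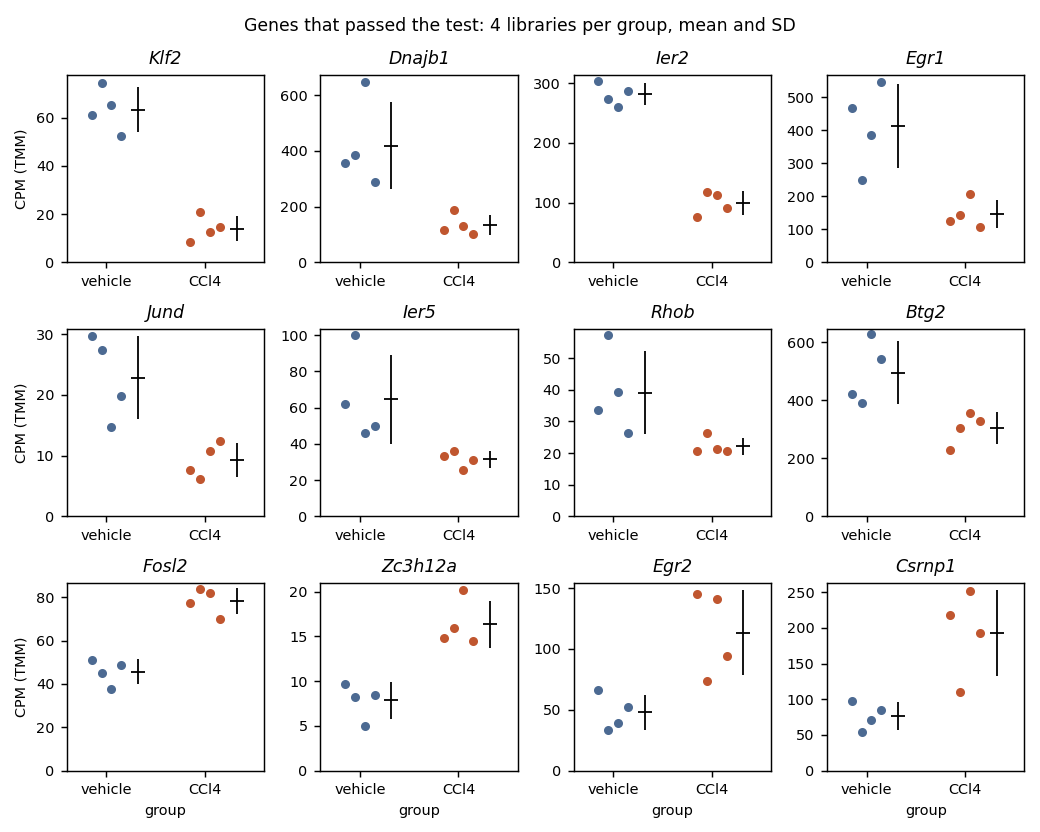
CPM after TMM scaling (vertical axes, starting at 0) of the 12 genes that passed the test, in the 4 vehicle (blue) and 4 CCl4 (orange) libraries, with the mean and SD at the side of each group. The groups do not overlap in any of the 12, and come closest in Rhob, where vehicle 4 was at 26.5 and CCl4 2 at 26.3 CPM.

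None of the 4 genes of phosphatases and mRNA decay passed in the main edgeR fit, DESeq2 or limma-voom. Of the 4, 3 were below 0, with a median of -0.38. At an unadjusted edgeR p under 0.05, 1 of the 4 was lower, Dusp2, and 0 were higher, against 12.9% and 15.4% of all genes. Dusp1, a nuclear phosphatase that switches off p38 and JNK, was at 4870, 3625, 4979 and 5121 CPM in vehicle and 3101, 3006, 4693 and 3331 CPM in CCl4. The 2 groups overlapped because vehicle 2 was low and CCl4 3 high for their groups. Its log2 fold change was -0.40 (SE 0.20, edgeR adjusted p 0.214). With library size as the sole scaling Dusp1 passed, at -0.54 (edgeR adjusted p 0.0342). Dusp2, another nuclear phosphatase of MAP kinases, was at 27.7 to 58.0 and 25.4 to 31.9 CPM (-0.58, edgeR adjusted p 0.100), and passed without vehicle 3 (adjusted p 0.044). Zfp36, which encodes the mRNA decay protein tristetraprolin, was at 598.4 to 975.2 and 553.2 to 755.9 CPM (-0.36, edgeR adjusted p 0.226). Its relative Zfp36l1 was at 142.8 to 240.1 and 154.9 to 258.7 CPM, and its log2 fold change of 0.10 (edgeR adjusted p 0.807) turned sign with library size or upper-quartile scaling.

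Of the 4 NF-kB feedback genes, Zc3h12a rose and 3 did not pass the test. Of all genes tested, 8.93% rose and 6.26% fell, and a group of 4 is too small to compare with these shares. In this group 1 was below 0, and the median of 0.25 fell to 0.10 without vehicle 2. Zc3h12a (chr4:125118423-125127840) encodes Regnase-1, an RNase that degrades inflammatory mRNAs. It was at 9.65, 8.27, 4.94 and 8.48 CPM in vehicle and 14.8, 15.9, 20.2 and 14.5 CPM in CCl4. All CCl4 libraries lay above all vehicle libraries. The log2 fold change was 1.06 (SE 0.22, edgeR adjusted p 0.00655), or 2.09-fold. Nfkbia, which encodes the NF-kB inhibitor IkB-alpha, was at 2034, 1526, 1538 and 1772 CPM in vehicle and 2114, 2352, 2591 and 1699 CPM in CCl4. Its groups overlapped because CCl4 4 lay below vehicle 1 and vehicle 4 (log2 fold change 0.35, SE 0.18, edgeR adjusted p 0.232). Tnfaip3, the ubiquitin-editing enzyme A20, was at 394.3 CPM in vehicle 2 and at 922.2 to 1178 CPM in the other vehicle libraries, against 873.4 to 1306 CPM in CCl4, and its log2 fold change of 0.15 (edgeR adjusted p 0.792) turned sign without vehicle 2. Nfkbiz, a nuclear IkB protein that assists induction of secondary genes, was at 397.2 to 831.8 and 351.5 to 544.4 CPM (-0.59, SE 0.24, edgeR adjusted p 0.126), and passed without vehicle 2 (-0.78, adjusted p 0.013). Nfkbiz also passed with library size as the sole scaling (edgeR adjusted p 0.0369).

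All 8 heat shock genes were below 0, as were 7931 of the 15212 genes tested, and their median was -0.66. Without the near-identical Hspa1a and Hspa1b, the other 6 had a median of -0.59. Of the 8, 1 passed the test, Dnajb1, where 6.26% of all genes tested fell. DESeq2 called 2 of the 8 lower, and 8.09% of all genes. At an unadjusted edgeR p under 0.05, 5 of the 8 were lower, as were 12.9% of all genes. None rose by edgeR, DESeq2 or limma-voom or at that unadjusted p, where 8.93% of all genes tested rose by edgeR. The median was -0.37 without vehicle 3 and -0.90 without CCl4 2. Dnajb1 (chr8:83608193-83612653), which encodes the J-domain helper HSP40 that hands clients to HSP70, was at 356.4, 386.8, 647.1 and 287.8 CPM in vehicle and 117.5, 186.4, 131.4 and 101.1 CPM in CCl4. The highest CCl4 library was below the lowest vehicle library. The means were 419.5 ± 157.3 and 134.1 ± 37.0 (SD, n = 4), a 3.13-fold decrease, at -1.65 on the log2 scale (SE 0.27, edgeR adjusted p 0.00161). It kept its call in all 22 alternatives tried, as did Klf2, Ier2 and Jund.

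Hspa8, the constitutive HSC70, was at 3324, 2716, 4125 and 3171 CPM in vehicle and 2475, 2630, 2990 and 2031 CPM in CCl4. The overlap was between vehicle 2 and CCl4 3 (log2 fold change -0.40, SE 0.19, edgeR adjusted p 0.186). With library size as the sole scaling Hspa8 passed (edgeR adjusted p 0.0249). The inducible HSP70 genes Hspa1a and Hspa1b are near-identical copies, with coding sequences that differ at 11 of 1929 aligned positions (99.4% identity) and whole transcripts at 83.8% identity. Their single values therefore depend on how reads were shared, and they are given as a sum. Summed, they were at 2851, 2045, 5287 and 3266 CPM in vehicle and 1395, 3295, 1980 and 1700 CPM in CCl4. CCl4 2 was above 3 of the 4 vehicle libraries. The log2 fold change of the sum was -0.68 (SE 0.32, edgeR adjusted p 0.187). Apart, Hspa1a had -0.65 (edgeR adjusted p 0.21) and Hspa1b -0.71 (edgeR adjusted p 0.168), and Hspa1b passed without CCl4 2 (adjusted p 0.0422).

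Hsp90aa1, the inducible HSP90, was at 284.4, 453.4, 439.4 and 211.5 CPM in vehicle and 204.8, 286.5, 166.1 and 148.4 CPM in CCl4. Its log2 fold change was -0.79 (SE 0.27, edgeR adjusted p 0.0771), and it passed without vehicle 4 (adjusted p 0.0372) or without CCl4 2 (adjusted p 0.0361). Hsp90aa1 also passed by DESeq2 (adjusted p 0.0265) and with library size as the sole scaling (edgeR adjusted p 0.0424). Hsph1, the HSP110 nucleotide exchange factor, was at 163.6 to 476.9 and 142.9 to 229.8 CPM (-0.45, SE 0.31, edgeR adjusted p 0.382). Dnaja1, another J-domain helper, was at 482.1 to 805.6 and 323.2 to 516.6 CPM (-0.51, SE 0.22, edgeR adjusted p 0.141). Hspe1, the mitochondrial co-chaperonin HSP10, was at 16.4 to 33.4 and 11.1 to 21.8 CPM (-0.66, SE 0.27, edgeR adjusted p 0.136). It overlaps Hspd1, the gene of its partner HSP60, by 112 bases on the other strand, and Hspd1 averaged 126.7 CPM in vehicle and 111.7 CPM in CCl4, with an edgeR adjusted p of 0.549.

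The heat shock genes shared a pattern over libraries. Vehicle 3 was the highest of all 8 libraries for 7 of the 8 genes, and vehicle 2 was the highest for Hsp90aa1. CCl4 2 was the highest of the CCl4 libraries for 7 of the 8. The near-identical Hspa1a and Hspa1b are 2 of the 7 each time, so these counts do not rest on 8 separate genes. Their sum was likewise highest in vehicle 3 (5287 CPM) and, within CCl4, in CCl4 2 (3295 CPM). The summed level of the 8 genes, in CPM of the library total, was 7458, 6924, 12486 and 8125 in vehicle and 4528, 7027, 4922 and 4826 in CCl4. CCl4 2 lay above vehicle 2, and the other 3 CCl4 libraries lay below all of vehicle. The spread within vehicle, as a coefficient of variation, was 52.8% for Hsph1, 41.6% for Hspa1a and 17.6% for Hspa8, and it was 6.48% for Ier2. No label records a difference in handling between vehicle 3 and the other vehicle libraries.

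**Figure D4:**
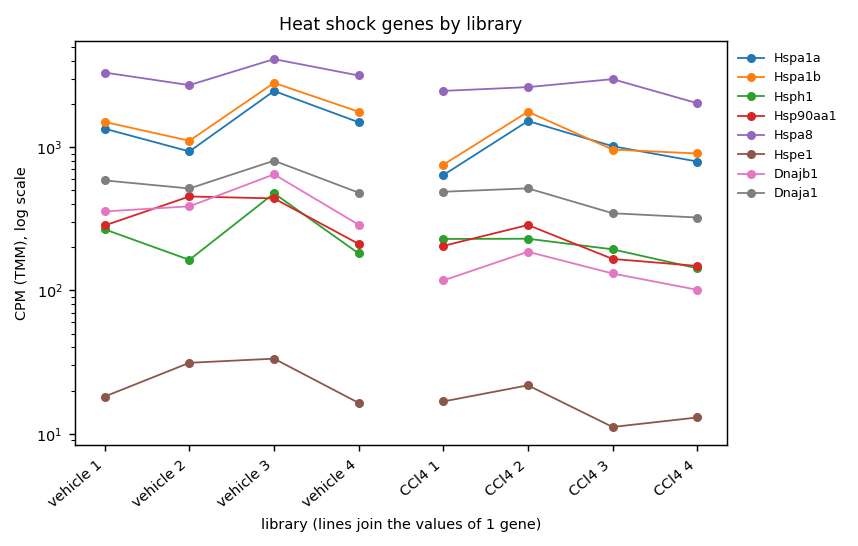
CPM after TMM scaling of the 8 heat shock genes (log scale) in each library, with lines joining the values of 1 gene within a group. Vehicle 3 peaks for most genes, with Hspa1b at 2816 CPM, and CCl4 2 peaks within CCl4, with Hspa1b at 1770 CPM.

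Heat shock element letters (GAANNTTC or TTCNNGAA, both strands) were found in promoter windows of 5 of the heat shock genes. These are printed because the element is HSF1's known site. The windows of Dnajb1, the heat shock gene that passed the test, held none, and Hsp90aa1 and Hspa8 had no window. Capitals mark the letters. The Hspa1a stretch is chr17:34972223-34972290 and the Hspa1b stretch chr17:34959305-34959372, both on the minus strand, with the element 104 bases before the start, and the 68 printed bases are the same in both. That of Hsph1 is chr5:149636351-149636380, minus strand, 54 bases before the start. That of Hspe1 is chr1:55088053-55088082, plus strand, with 3 overlapping matches that start 89, 84 and 79 bases before the start. That of Dnaja1 is chr4:40722333-40722362, plus strand, 124 bases before the start. In GENCODE M21 the Hspe1 stretch also lies in an exon of Hspd1, the Dnaja1 stretch in an exon of a longer Dnaja1 transcript, and the Hsph1 stretch touches a first exon of Hsph1.
Hspa1a: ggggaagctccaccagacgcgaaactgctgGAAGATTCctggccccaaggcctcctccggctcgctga
Hspa1b: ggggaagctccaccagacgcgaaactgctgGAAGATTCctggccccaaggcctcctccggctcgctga
Hsph1: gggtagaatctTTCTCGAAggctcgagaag
Hspe1: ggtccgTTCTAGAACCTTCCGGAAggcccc
Dnaja1: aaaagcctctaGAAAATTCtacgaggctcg

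Promoter windows were in the table for 33 of the 41 genes, 52 windows in all, and 32851 windows of all genes were searched alike. The table has no entry for Fosl1, Egr1, Egr3, Klf10, Ier2, Nfkbiz, Hsp90aa1 and Hspa8. The heat shock element was in 21.2% of the 52 windows and 15.1% of all windows, and besides the 5 heat shock genes it was in windows of Jun, Fosl2, Egr2 and Sgk1. Kappa B site letters were in 13.5% and 4.51% of windows, in 7 of the genes (Fos, Fosb, Fosl2, Maff, Ier3, Nfkbia and Tnfaip3). CArG box letters were in windows of Egr2 and Zfp36 (1.63% of all windows). cAMP response element letters were in Btg2, Dusp1 and Maff (1.79%), and AP-1 site letters (TGACTCA) in Csrnp1 and Tnfaip3 (5.2%). A match describes letters and is not a bound site. Another shared feature was size. The median span was 5.32 kb for the 41 genes and 23.7 kb for the 14498 protein-coding genes tested. For 10 of the 41 (24.4%) the transcript with the most counts had a single exon, as did 3.39% of the protein-coding genes tested.

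The other genes of these pathways were read from lists of their own. For each list's counts, the shares over all genes tested were 8.93% higher and 6.26% lower by edgeR. Of 36 other immediate early genes, 6 rose and 9 fell, with a median of 0.01. Hbegf, an EGF receptor ligand, was at 470.4 ± 79.5 CPM in vehicle and 106.9 ± 30.0 in CCl4 (SD, n = 4), and fell by 2.14 on the log2 scale (SE 0.21, edgeR adjusted p 8.68e-05). Errfi1, a feedback inhibitor of that receptor, rose 3.53-fold, the nuclear receptor Nr4a2 rose 3.40-fold, and Ptgs2, which encodes cyclooxygenase 2, rose 2.90-fold. The abundant Ccrl2 and Cxcl1 did not pass (log2 fold change 0.45 and 0.09). Like the 41 genes, this list held genes that moved in both directions.

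Of 29 other chaperones and HSF1 genes, 3 fell and 0 rose by edgeR, with a median of -0.16 and 21 below 0. DESeq2 and limma-voom also called 0 higher, as did an unadjusted edgeR p under 0.05. Of all genes tested, 8.93% rose by edgeR and 15.4% were higher at that unadjusted p. Ubb, a polyubiquitin gene under HSF1, was at 7208 ± 1213 CPM in vehicle and 3488 ± 479.1 in CCl4 (SD, n = 4), at -1.05 on the log2 scale (SE 0.18, edgeR adjusted p 0.00253). Hsp90ab1, the constitutive HSP90, fell 1.68-fold, and the ribosome-associated Dnajc2 fell 1.52-fold. Dnajb6, another J-domain gene, did not pass.

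Upstream of the immediate early genes, 6 of 28 MAP kinase and serum response genes rose and 0 fell by edgeR, with a median of 0.12. None fell by DESeq2, by limma-voom or at an unadjusted edgeR p under 0.05. Of all genes tested, 6.26% fell by edgeR and 12.9% were lower at that unadjusted p. The MAP kinase and serum response genes that rose are named next. They included the kinases Mapkapk3 (3.56-fold), Mapk3 (ERK1, 2.23-fold) and Rps6ka3 (1.84-fold) and the serum response coactivator Mrtfb (1.56-fold). The abundant Map3k8 and Map2k3 did not pass. Of 15 other MAP kinase phosphatases and Sprouty genes, 3 rose and 4 fell, with Dusp4 and Dusp5 4.44-fold and 2.31-fold higher and Spry1 and Dusp6 2.88-fold and 2.01-fold lower. Dusp3 and Dusp22 did not pass. Of 14 other AP-1 family genes and partners, 0 rose by edgeR, its unadjusted p under 0.05, DESeq2 or limma-voom. Of all genes tested 8.93% rose by edgeR, a share that leaves few genes in a list of 14. By edgeR 3 fell: Batf3 (2.39-fold), Batf2 (1.97-fold) and Maf (1.74-fold). The abundant Nfe2l2 did not pass.

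Of 27 NF-kB subunits and other inhibitors, 8 rose and 1 fell, with a median of 0.35. Tnip3, an A20-binding protein, rose from 16.7 ± 8.27 to 155.2 ± 71.5 CPM (SD, n = 4), or 3.22 on the log2 scale (SE 0.39, edgeR adjusted p 0.000272). Traf1 rose 3.40-fold, Zc3h12c, a relative of Zc3h12a, 3.02-fold, and Tnip1 2.73-fold, while Nfkbid and Nfkbie did not pass. Of 22 tested KLF, BTG and ZFP36 relatives, 4 rose and 1 fell. Klf15 fell 2.52-fold, and the small GTPase gene Rhoc, a paralog of Rhob, rose 2.46-fold. Bcl2a1d and Bcl2a1b rose 1.98-fold and 1.74-fold, but they are near-identical copies and their single values are uncertain. Rhoa and Klf3 did not pass.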

How the data were processed

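RNA of sorted liver macrophages was sequenced after SMART-Seq HT amplification and NEBNext Ultra II library preparation, per the labels' protocols, which name no step that keeps the strand. The authors deposited kallisto estimated counts and TPM per transcript for each library, and the transcript lengths used beside them. They also deposited a table of FPKM per gene and the sources used here do not tell how. Per the submitters' processing notes, the tools were kallisto, edgeR and limma and the build was mm10. Their versions are not given there.

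Estimated counts were summed per gene with GENCODE M21 and rounded. Genes were kept by filterByExpr (minimum count 10, minimum total 15), which set 20694 aside. CCl4 and vehicle were compared by the quasi-likelihood test of edgeR 4.0.16 (R 4.3.3) with TMM scaling, 2-sided, group as the sole term, p-values adjusted by Benjamini-Hochberg, threshold 0.05. Levels are TMM-scaled CPM unless named otherwise. Alternatives used DESeq2 1.42.0, limma 3.58.1, other scalings and filters, the FPKM table on log2(FPKM + 1) and log2(FPKM + 0.1), and each library left out. The fits were first tested on simulated data. Sample values were compared by exact permutation. Libraries with the same number did not deviate together, with correlations of -0.241 to 0.0387, so they were not treated as pairs.

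The members, roles and other lists were chosen with earlier results of these data known. Every member is named, with each library's value for those past the threshold and the most abundant of each role. Of each other list, up to 4 called genes with the largest fold change and up to 2 abundant genes that did not pass are named. A few genes that this rule would name are not reported here. Klf6, Sgk1, Hsp90aa1, Jun and Btg1 were given further values after they had been seen.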

Additional observations from a re-analysis of the deposited data

Results flagged for a closer look

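Of 82 groups of 4 libraries (the 41 genes in vehicle and in CCl4), 2 held a library far from the other 3, where chance alone flags about 1 group in 20. Rhob in CCl4 2 was at 26.26 CPM, and the other CCl4 libraries were at 20.58 to 21.23 CPM, so that the gap took 0.886 of the group's range. Dusp1 in vehicle 2 was at 3625 CPM, and the other vehicle libraries were at 4870 to 5121 CPM, a gap of 0.832 of the range. Vehicle 2 was also the library with the most olfactory and vomeronasal receptor counts among vehicle, and whether that bears on Dusp1 was not tested.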

How the results depend on the processing

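The 41 genes' fold changes were recomputed in 889 cases, of which 812 kept direction and side of the threshold, 19 lost the call, 38 gained one and 20 changed sign. Jund, Klf2, Ier2 and Dnajb1 were called in every alternative they had. Members called higher numbered 4, against 2, 2 and 0 on log2(FPKM + 1), on log2(FPKM + 0.1) and without a filter on FPKM, and 4 to 5 with 1 library left out. Members called lower numbered 8, against 16 with library size alone, 13 with upper-quartile scaling, 13 with the stricter filter (5 CPM), 4 on unfiltered FPKM and 6 to 11 with 1 library left out. Over all genes, 1358 higher became 448, 436 and 335 in those FPKM settings and 1004 to 1503 with 1 library left out. The 953 lower became 1431 with library size alone, 543, 521 and 315 in the FPKM settings and 578 (without CCl4 1) to 1163 with 1 library left out. With FPKM filtered 6359 genes were tested, and without a filter on FPKM 24443, against 15212 in the main fit. The causes of these differences were not tested.

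Changes of sign were all in genes not called. On FPKM, Fosb had 0.158, 0.259 and 0.158 and Hsph1 0.000 (pseudocount 0.1). Fosl1 had -1.09 with length-scaled TPM counts. Maff had 0.081 with limma-voom and 0.052 with the replicate block. With 1 library left out, Maff ran from -0.308 to 0.173, Mcl1 from -0.168 to 0.027, Zfp36l1 from -0.020 to 0.243 and Tnfaip3 from -0.097 to 0.314. Zfp36l1 had -0.046 with library size and -0.011 with upper-quartile scaling. Without vehicle 2 and CCl4 4, Maff had 0.247, Egr3 0.001, Mcl1 0.094 and Tnfaip3 -0.081.

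With the replicate number as a block, 4 members were higher and 9 lower, and 1281 genes were higher and 829 lower over all. Same-numbered libraries did not correlate best with each other for any of the 4 vehicle libraries, so the numbers are not read as pairs. With library size alone, all-gene calls split 1082 higher and 1431 lower, and with upper-quartile scaling 1226 and 1356. Summing Hspa1a and Hspa1b, an alternative chosen after seeing the data, left 4 members higher and 8 lower, and moved the genes called higher over all from 1358 to 1359. Depth limits few members, though Egr3 and Fosl1 had as few as 11 and 13 counts in a library.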
